A study of Mus musculus with 2 samples.

Results

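The genes described are 10 components of blood coagulation and of the plasminogen activator system: tissue factor (F3), factors VII (F7), X (F10) and XIII A chain (F13a1), the anticoagulant proteins thrombomodulin (Thbd), endothelial protein C receptor (Procr) and tissue factor pathway inhibitor (Tfpi), and urokinase (Plau), its receptor (Plaur) and tissue plasminogen activator (Plat). They were taken by name, and every probe set that the array annotation assigns to 1 of them alone was used, which gave 17 probe sets out of 34945 with a single gene, for 10 of 18193 named genes. RNA came from air pouch membranes, the lining of a cavity raised under the skin of female Balb/C mice of 6 to 8 weeks with 2 ml sterile air, dissected 9 h after an injection given on day 7. The control group received 1 ml PBS and the MSU group 2 mg monosodium urate (MSU) crystals, the crystals of gout, in 1 ml PBS. RNA of the 3 mice of each group was pooled and hybridized to 1 array per pool, and exudate leukocytes had been washed out of the pouch before dissection. There were thus no replicates and no test between the groups, and all differences below describe these 2 pools.

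Tissue factor is the membrane protein that starts coagulation outside the vessel by binding factor VIIa, and this complex activates factor X, whose active form cuts prothrombin to thrombin. Thrombin forms fibrin, which factor XIIIa cross-links. Tissue factor pathway inhibitor blocks the starting complex, and thrombomodulin with the endothelial protein C receptor turns thrombin into an activator of the anticoagulant protein C. Urokinase and tissue plasminogen activator convert plasminogen to plasmin, which dissolves fibrin, and the urokinase receptor holds urokinase on the cell surface, where leukocytes use it in migration. Fibrin and fibrinolytic activity are well known in inflamed synovium.

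Signals are linear intensities per probe set, a group of short oligonucleotides that together read a transcript. A detection floor was set for each array, 64.6 for control and 74.1 for MSU. A ratio is called a fold where both signals reached their floor, and a bound ("at least") where only 1 did. Of the 17 probe sets, 13 reached the floor in both pools, the 3 of F10 on the MSU array alone, and 1 of Plat on neither. For a gene read by several probe sets the brightest stood for it, and "measured" means a fold or a bound.

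Plaur, F10 and Thbd had at least 2-fold higher signals in the MSU pool, and none of the 10 genes was at least 2-fold lower. Over all 11155 measured genes, 3.70% passed the same size upward and 4.29% downward. F10 counts as measured through its MSU signal alone, so it could not have come out lower, and its place among the higher genes is given as a description. The remaining 7 genes lay between the 2-fold limits, 5 with a higher and 2 with a lower signal under MSU. The median log2 ratio (MSU over control) of the 9 genes with a fold was 0.48, or 0.52 with F10 at its bound, beside -0.05 over the 10045 genes with a fold.

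**Figure D1:**
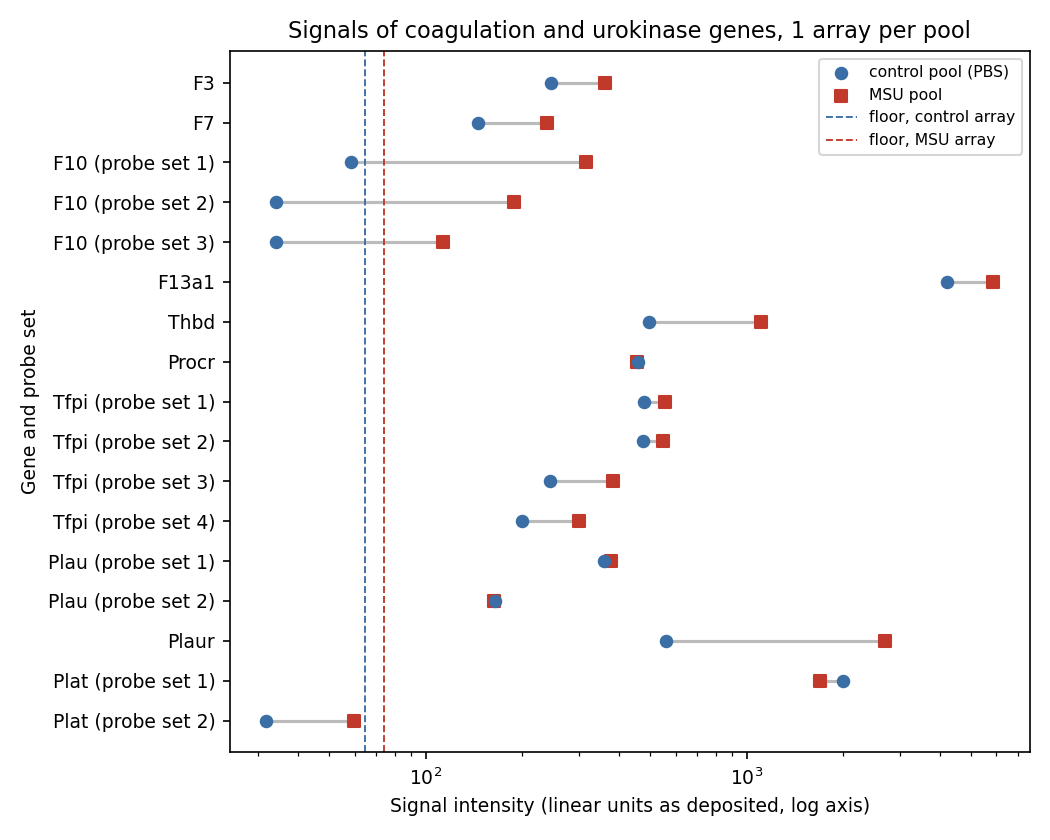
Signal of each of the 17 probe sets (y axis) on the control array (blue circles) and the MSU array (red squares), on a log axis in deposited linear units, 1 array per pool. Dashed lines are the detection floors (64.6 and 74.1). Plaur, the 3 probe sets of F10 and Thbd have the longest lines to the right among the probe sets above a floor, whereas Procr and Plau have nearly coincident points.

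The genes that start coagulation had moderately higher signals in the MSU pool. Tissue factor (F3, probe set 1417408_at) gave a signal of 246 for control and 361 for MSU membranes, which is 1.47-fold higher. Factor VII (F7, 1419321_at), its ligand and a protease made mostly by liver, gave 145 and 238, which is 1.64-fold higher. Both signals of each gene lay above the floors, and both ratios lay inside the 2-fold limits. By ratio, F7 ranked 593 and F3 921 from the highest among the 10045 genes with a fold. Under scaling on the spike-in controls their log2 ratios of 0.71 and 0.55 were 0.26 and 0.10.

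Factor X stood apart from factor VII. Its brightest probe set (1449305_at) gave 58.6 for control membranes, under the floor, and 316 for MSU membranes, which is at least 4.89-fold higher. The other two gave 34.0 and 189 (at least 2.92-fold) and 34.2 and 113 (at least 1.74-fold). All 3 were thus under the floor in control membranes and above it in MSU membranes, and their plain ratios, taken without a floor, were 5.40, 5.54 and 3.30. The bound of F10 moves with the floor, and its log2 value of 2.29 became 1.45 with a higher floor, set where 15000 probe sets of an array lie at or above it. F7, F10 and Proz (protein Z, a cofactor in factor X inhibition) are consecutive protein-coding genes on chromosome 8 in the RefSeq order, followed by Pcid2, an mRNA export factor. Proz lay under the floor on both arrays with both of its probe sets, and Pcid2 was 1.20-fold higher at signals of 133 and 160 on its representative probe set.

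Of the 9 hepatocyte markers with a named probe set, 7 lay under the floor on both arrays, among them albumin (Alb, 32.3 and 2.24), transthyretin (Ttr, 13.8 and 13.3) and apolipoprotein A1 (Apoa1, 30.5 and 17.8). The summed signal of this list, taken here and below over all its named markers, was 2022 in control and 784 in MSU membranes, most of it from Cyp2e1, an enzyme also made by fat (1749.9 and 611). The other marker above both floors, Apoa2, gave 74.8 and 97.5, which is 1.30-fold higher. The liver-made fibrinogen chains Fga, Fgb and Fgg and prothrombin (F2) were under both floors.

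Factor XIII A chain (F13a1, 1448929_at), the transglutaminase that cross-links fibrin and is made by macrophages, was 1.40-fold higher, with signals of 4197 and 5870.0. This ratio lay within the 2-fold limits, and its log2 value of 0.48 became 0.027 on the spike-in scale. Of 14 resident macrophage markers, 13 were measured, 0 passed 2-fold upward and 2 (Folr2 and Cd209f) downward, beside 3.70% and 4.29% of all measured genes. The median log2 ratio of the 13 was -0.18. The log2 ratios of these markers ran from -1.38 (Cd209f) to 0.96 (Cd163), with Mrc1 at 0.83. Their summed signal was 31328 and 30140.0, and the brightest were the growth factor receptor Csf1r (5349 and 6119.8) and the complement chain C1qa (6685 and 4725). The part of macrophages in the signal of F13a1 was not tested.

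Thrombomodulin and the protein C receptor act together but differed in ratio between these pools. Thbd (1448529_at) gave 495 for control and 1109.7 for MSU membranes, a 2.24-fold higher signal that ranked 266 among genes with a fold. Procr (1420664_s_at) gave 457 and 453, a difference of 1.01-fold whose direction turns with the scaling. The log2 ratio of Thbd exceeded that of Procr by 1.18, a difference in which the scaling factor of the arrays cancels. On the spike-in scale the log2 ratio of Thbd, 1.16 as deposited, was 0.71 and thus under 2-fold.

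Tissue factor pathway inhibitor had 4 probe sets that fell into pairs. The brighter pair gave 477 and 555, and 474 and 547, with log2 ratios of 0.22 and 0.21. The dimmer pair gave 244 and 384, and 199.6 and 300.3, with log2 ratios of 0.65 and 0.59. All 4 signals were higher under MSU, and the SD of these log2 ratios was 0.24, beside a median of 0.22 for the same SD over 4002 genes. Which transcripts of Tfpi each probe set reads was not analysed here. F3, part of the starting complex that Tfpi blocks, had a log2 ratio 0.33 above that of the brightest Tfpi probe set and below those of the dimmer pair.

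Thbd, Procr and Tfpi are known in endothelium, and endothelial markers were read on the same arrays. Of 15 endothelial markers 13 were measured and 0 passed 2-fold in either direction, beside 3.70% upward and 4.29% downward over all measured genes. The log2 ratios of the 12 with a fold ran from -0.59 to 0.12. The other measured marker, Vwf (108 and 22.9, the latter under the floor), has a bound, so a 2-fold decrease could not have been called for it. The summed signal of the 15 markers was 2938 in control and 2487 in MSU membranes, and Tie1 and Erg lay under both floors. The brightest, endoglin (Eng) and the junction protein Esam, gave 695 and 463, and 304 and 303. Whole membranes were measured, so that a change in the number of cells of a type and in RNA per cell cannot be told apart. The part of endothelium in the signals of Thbd, Procr and Tfpi was not tested.

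Within the urokinase system the receptor differed from the enzymes. Plaur (1452521_a_at) gave 562 in control membranes and 2691 in MSU membranes, a 4.79-fold higher signal that ranked 48 among the 10045 genes with a fold. Plau, the gene of urokinase itself, gave 358 and 379 on its brighter probe set (1.06-fold higher) and 164 and 163 on the other (1.01-fold lower). Plat (1415806_at) gave 1999 and 1692, which is 1.18-fold lower, and its second probe set stayed under both floors at 31.8 and 59.9. Thus only the receptor lay outside the 2-fold limits among these 3 genes, at every scaling tried. The log2 ratio of Plaur exceeded that of Plau by 2.18 and that of Plat by 2.50, differences that no rescaling of an array by 1 factor would alter. The sign for Plau was not stable, with a log2 ratio of 0.08 as deposited and -0.37 on the spike-in scale.

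Plaur is expressed by neutrophils and monocytes, and markers of both cell types were read on the same arrays. Over all measured genes, 3.70% passed 2-fold upward. Of 12 named neutrophil markers 11 were measured, and 10 of these passed 2-fold upward. Among them, Cxcr2 (63.0 and 457) and Cd177 (62.3 and 470) were under the control floor. They count as measured through their MSU signals alone, so neither could have come out lower. Over the 9 folds the median log2 ratio was 2.98. The summed signal of the 12 markers was 3032 in control against 24849 in MSU membranes. The calgranulins S100a9 (724 and 8737) and S100a8 (817 and 8677) were the brightest, whereas lactoferrin (Ltf) gave 234 and 161 and the granule peptide Camp lay under both floors. Of 8 markers of recruited monocytes 7 were measured, and 2 of them, the integrin Itgam (258 and 1014) and the chitinase-like Chil3 (99.2 and 337), passed 2-fold upward, and the summed signal of the 8 was 5247 and 7913. The brightest of this list, Plac8 and Vcan, gave 2385 and 2986, and 1126 and 1904. Ccr2 gave 505 and 556, Ms4a4c 305 and 305, and Nr4a1 530 and 782, while Cx3cr1 lay under both floors. The part of these cells in the signals of Plaur, F10 and Thbd was not tested.

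**Figure D2:**
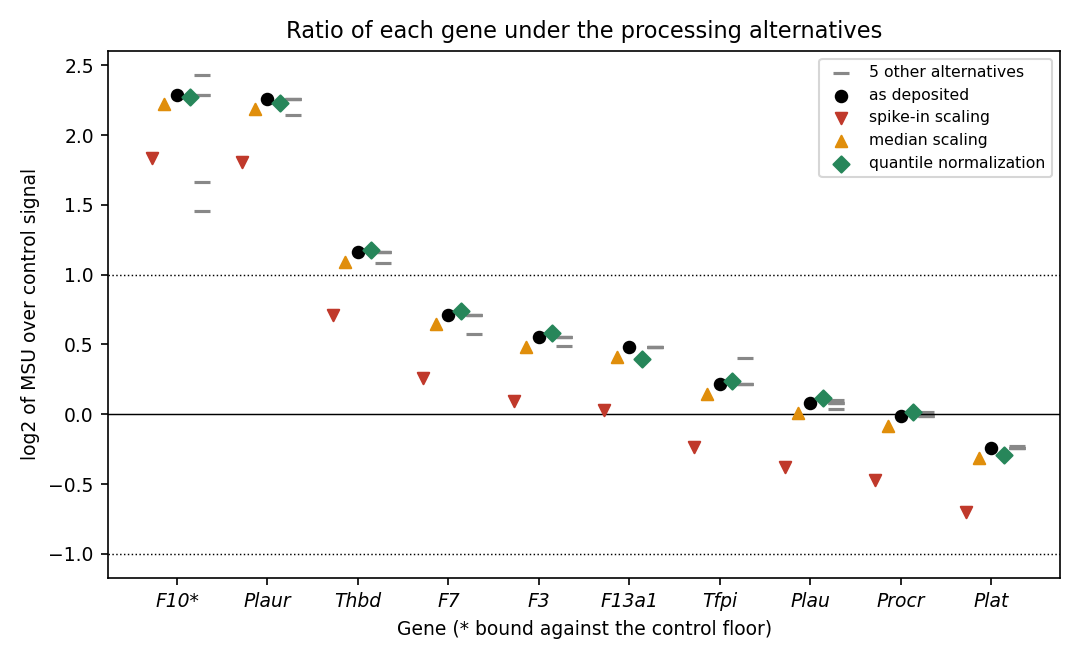
Log2 of MSU over control signal (y axis) for each of the 10 genes (x axis), ordered by ratio, as deposited (black circles), under 3 other scalings (triangles and diamonds) and under 5 further alternatives (grey dashes), 1 array per pool. Dotted lines are 2-fold and the star marks the bound of F10. Plaur and F10 stay above 2-fold in every setting, Thbd lies at 0.71 under spike-in scaling, and the sign turns for Tfpi and Plau under spike-in scaling and for Procr under quantile normalization and with the floor as a pseudocount. F10 is drawn from its brightest probe set throughout.

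The promoter windows of 4 of these genes are shown because they hold, or lack, elements often described in promoters of induced genes, and because their transcripts differed in ratio. The windows run from 250 bases before to 50 bases after the transcript start in RefSeq (mouse build GRCm38.p6), 5′ to 3′ on the strand of the gene. Capitals mark matches on either strand to AP-1 (TGAGTCA), Sp1 (GGGCGG), Egr-1 (GCGTGGGCG or GCGGGGGCG) and the TATA box (TATAAA). The F3 window lies at chr3:121723287-121723586, that of Plaur at chr7:24462233-24462532, that of F10 at chr8:13037058-13037357 and that of Procr at chr2:155750967-155751266, each on the plus strand.
F3: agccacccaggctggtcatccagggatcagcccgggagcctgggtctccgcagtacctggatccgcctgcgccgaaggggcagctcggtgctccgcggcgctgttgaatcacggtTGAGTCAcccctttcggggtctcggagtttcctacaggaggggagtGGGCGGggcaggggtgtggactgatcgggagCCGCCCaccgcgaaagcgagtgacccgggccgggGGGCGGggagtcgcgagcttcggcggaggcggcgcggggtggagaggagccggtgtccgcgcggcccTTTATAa
Plaur: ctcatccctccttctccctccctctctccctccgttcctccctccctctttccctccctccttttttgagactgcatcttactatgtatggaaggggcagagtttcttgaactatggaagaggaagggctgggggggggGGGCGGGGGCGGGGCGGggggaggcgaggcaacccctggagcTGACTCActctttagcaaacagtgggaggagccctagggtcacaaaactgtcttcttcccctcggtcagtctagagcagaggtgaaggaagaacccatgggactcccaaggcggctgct
F10: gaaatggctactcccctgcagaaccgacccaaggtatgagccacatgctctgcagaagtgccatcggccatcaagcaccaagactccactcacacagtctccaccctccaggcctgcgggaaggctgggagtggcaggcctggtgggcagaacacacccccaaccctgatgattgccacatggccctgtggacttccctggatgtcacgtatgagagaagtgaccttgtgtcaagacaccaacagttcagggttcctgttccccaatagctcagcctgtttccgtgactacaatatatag
Procr: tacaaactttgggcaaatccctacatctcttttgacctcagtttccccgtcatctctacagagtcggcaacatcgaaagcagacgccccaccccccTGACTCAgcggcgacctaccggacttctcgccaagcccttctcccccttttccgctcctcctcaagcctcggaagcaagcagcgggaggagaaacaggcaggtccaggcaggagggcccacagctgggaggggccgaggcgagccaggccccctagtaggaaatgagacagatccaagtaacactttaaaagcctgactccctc

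The table held windows for 7 of the 10 genes, 9 windows in all, and none for Thbd, Plau and Plat. AP-1 letters were in 3 of the 9 windows, those of F3 (starting at -135 from the transcript start), Plaur (-69) and Procr (-154), and in 5.20% of all 32851 windows. The log2 ratios of these 3 genes were 0.55, 2.26 and -0.01, so genes with the letters lay on both sides of the 2-fold limit. Sp1 letters were in 4 windows (35.7% of all), 3 times each in F3 and Plaur and once in each of the 2 Tfpi windows. The Egr-1 letters were in the Plaur window alone (-109), where they overlap the Sp1 matches, and in 3.47% of all windows. TATA letters were in the F3 window, at 44 bases after the start, and in 1 of Tfpi (13.6% of all). The F10 window held none of the 6 motifs searched. The kappaB consensus and the cyclic AMP response element (TGACGTCA) were in no window of these genes (8.46% and 1.79% of all). These letter matches are not evidence of binding.

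The other genes of the pathways were read from 4 lists with 48 further symbols, of which 42 had a named probe set and 23 were measured. Of these 23, 1 passed 2-fold upward and 2 downward, beside 3.70% and 4.29% of all measured genes. So few genes do not set these lists apart from that share, and the genes below are given as a description. The median log2 ratio of the 21 with a fold was -0.07.

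The single higher gene was Serpinb2, plasminogen activator inhibitor type 2, which blocks urokinase and is strongly made by activated macrophages. It gave 1318 and 6662, which is 5.05-fold higher. Its log2 ratio of 2.34 was 0.08 above that of Plaur and 2.26 above that of Plau. In the fibrinolysis list of 13 named genes, 11 were measured and 2, Plaur and Serpinb2, passed 2-fold upward and 0 downward, with a median log2 ratio of 0.08. Annexin A2 (Anxa2), a cell surface site for plasminogen and tissue plasminogen activator, gave 6037 and 5752 on its brightest probe set, and an _x_at probe set, which can read related sequences, was at least 2.02-fold lower. Its partner S100a10 was lower on all 3 probe sets (log2 ratios of -0.85 to -0.32), and the clearance receptor Lrp1 gave 2325 and 2628. Plasminogen itself (Plg), made in liver, was under both floors.

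Among 22 coagulation genes, 10 were measured, F10 past 2-fold upward and Vkorc1 downward. Vkorc1, the vitamin K epoxide reductase that serves the carboxylation of factors VII and X, gave 1892 and 806, which is 2.35-fold lower, while Ggcx, the carboxylase, gave 177 and 148. Factor V (F5), the cofactor of factor Xa, was higher on both probe sets, with signals of 97.8 and 168 on the brighter one and log2 ratios of 0.78 and 0.73. Mcfd2 and Lman1, which carry factors V and VIII out of the endoplasmic reticulum, gave 1454 and 2088, and 1349.5 and 1166 on the brightest probe set, although 2 of the other probe sets of Lman1 had higher signals under MSU. Von Willebrand factor (Vwf), the platelet-binding protein of endothelium, gave 108 in control membranes and 22.9, under the floor, in MSU membranes, which is at least 1.46-fold lower. The 12 others were under both floors.

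Of 14 named anticoagulant genes 10 were measured, and on the brightest probe set only Thbd lay outside the 2-fold limits. Entpd1 (CD39), which removes the platelet agonist ADP, was higher on all 3 probe sets, with 238 and 419 on the brightest and log2 ratios from 0.82 to 1.22, so that 2 of the 3 passed 2-fold. Protein S (Pros1), the cofactor of activated protein C, gave 1126 and 1101, and its relative Gas6 gave 1579 and 887, which is 1.78-fold lower. Annexin A5 (Anxa5) gave 3536 and 2521, and Tfpi2, a Kunitz inhibitor of plasmin, 582 and 410.5. Protein C (Proc) and antithrombin (Serpinc1), both of liver, were under the floor in both pools.

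F2r, the main thrombin receptor (PAR-1), was lower on both probe sets, with signals of 1389 and 646 (2.15-fold lower) and of 962 and 475 (2.03-fold lower). Both names end in _s_at, a mark of probe sets that read several transcripts. F2rl2 (PAR-3) gave 93.0 and 114, and F2rl3 (PAR-4) was under both floors. The log2 ratio of Thbd, which binds thrombin, exceeded that of F2r, which thrombin cleaves, by 2.27. F2r is known in fibroblasts and smooth muscle. Of 9 smooth muscle and pericyte markers 7 were measured and 2 (Acta2 and Tagln) were at least 2-fold lower, beside 4.29% of all measured genes. The summed signal of this list was 7274 and 3502. Cspg4 (124 and 66.3, the latter under the floor) has a bound, so a 2-fold decrease could not have been called for it. Of 12 fibroblast markers none passed 2-fold in either direction, with a summed signal of 60966 and 68194. Acta2 and Des, the brightest of the first list, gave 4072 and 1894, and 791 and 469, and Col3a1 and Col1a2, the brightest of the second, 11909 and 15371, and 11593 and 12750.2. Their part in the signal of F2r was not tested.

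**Figure D3:**
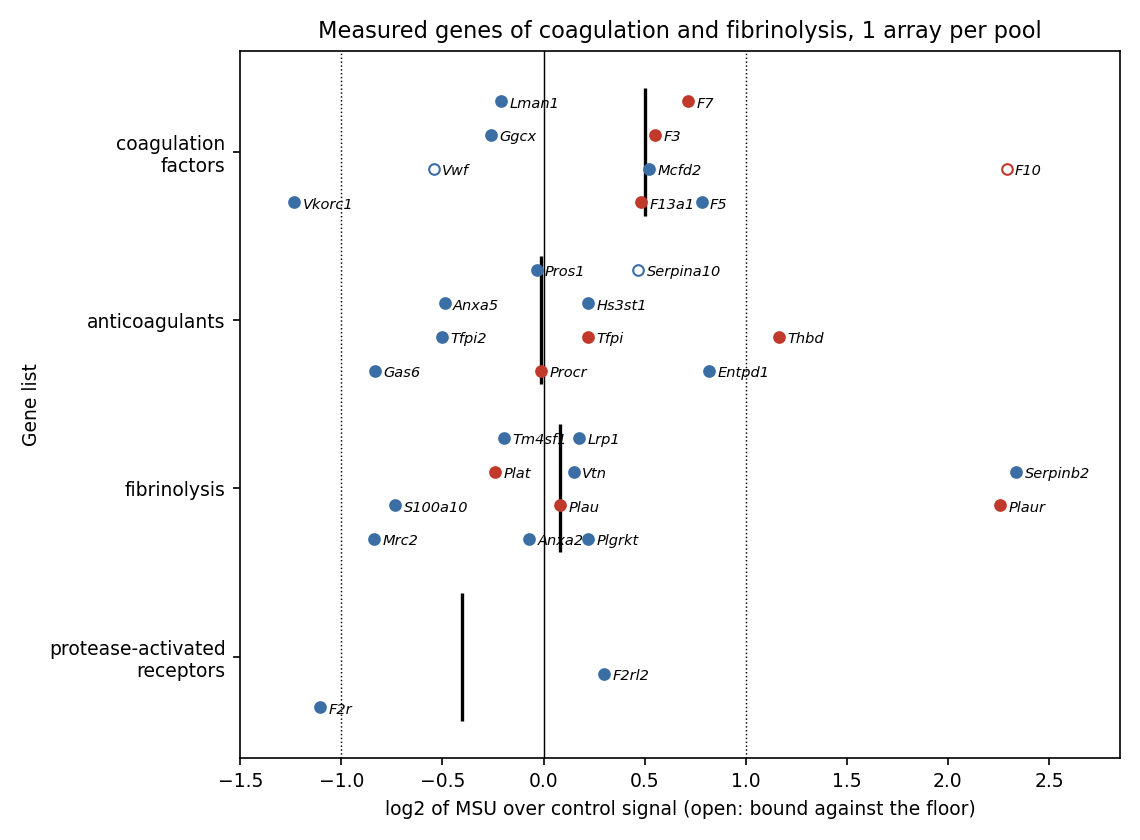
MSU over control signal on a log2 scale (x axis) for the measured genes of 4 lists (y axis), 1 array per pool. Red points are the 10 genes described and blue points the others, open points are bounds against a floor, black bars list medians over the folds and dotted lines 2-fold. F10, Plaur, Thbd and Serpinb2 lie right of 2-fold, and Vkorc1 and F2r left of it, where the spike-in scale would shift all points left by 0.46.

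Platelets could also carry some of these transcripts. Of 11 platelet markers 8 were measured, 2 passed 2-fold upward and 0 downward, beside 3.70% and 4.29% of all measured genes. Those 2 were the chemokines Pf4 (2179 and 4565) and Ppbp (43.8, under the floor, and 627). Ppbp and Gp6 (36.1 and 86.2) count as measured through their MSU signals alone, so neither could have come out lower. The integrin chain Itga2b gave 151 and 184, and Gp9, Clec1b and Nrgn were under both floors. Gp1bb gave 80.0 and 86.7. Gp5 (94.7 and 90.3), Treml1 (112 and 94.5) and Tubb1 (82.2 and 62.6, the latter under the floor) had lower signals under MSU. The summed signal of the list was 2805 in control and 5903 in MSU membranes, most of it from Pf4. The part of platelets in the signals of the genes described was not tested.

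Fat and muscle markers also differed in signal between the pools, the muscle markers not all in the same direction. All 5 adipocyte markers with a fold, of 7 named, were at least 2-fold lower in the MSU pool (summed signal 12999 and 3517). So were 4 of 8 skeletal muscle markers (33289.8 and 22477), beside 4.29% of all measured genes. Of the mast cell markers 6 of 8 and of the keratinocyte markers 2 of 7 were measured, and none of them passed 2-fold. The brightest of these 4 lists were Fabp4 (5879 and 1482) and Lpl (3912 and 1399), Acta1 (7311 and 8398) and Ckm (6709 and 4083), Cma1 (213 and 120.5) and Cpa3 (188 and 116), and Krt5 (112 and 45.8) and Krt10 (78.6 and 45.8). The MSU signals of Krt5, Krt10, the adipocyte marker Lep (92.5 and 7.66) and the mast cell markers Mcpt4 (91.6 and 13.8) and Tpsb2 (96.7 and 58.0) lay under the floor. Their values are bounds, so a 2-fold decrease could not have been called for them. The part of fat and muscle in the lower signals of Vkorc1, Plat and F2r was not tested.

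**Figure D4:**
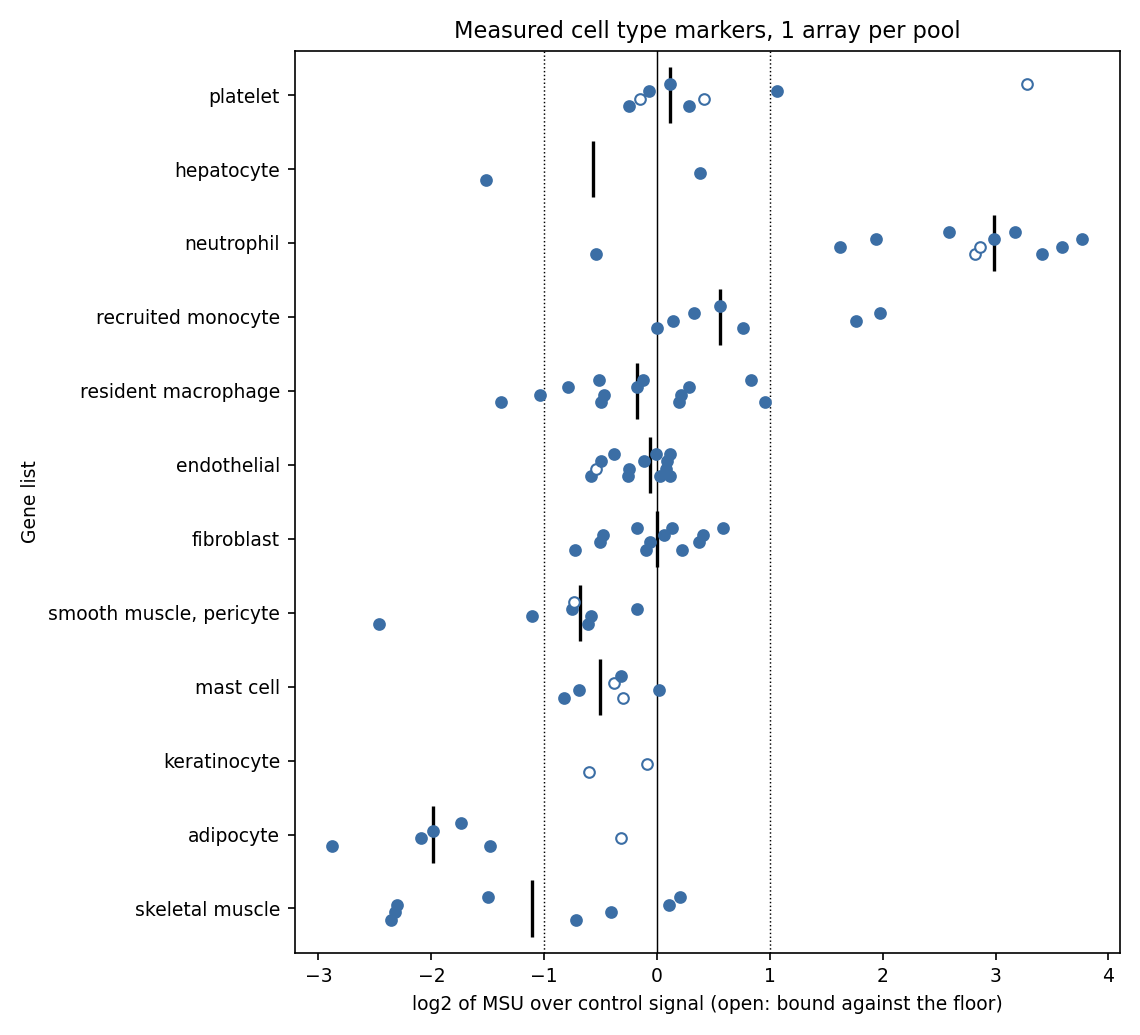
MSU over control signal on a log2 scale (x axis) for the measured markers of 12 cell types (y axis), from the 2 arrays. Folds are drawn filled and bounds open, with black bars for the medians over the folds and dotted lines for 2-fold. Neutrophil markers have a median of 2.98, endothelial markers of -0.06 and adipocyte markers of -1.99.

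The transcripts spiked in at hybridization gave a higher signal under MSU on 18 of 18 probe sets, with a median log2 ratio of 0.46. Scaling on them moved the median log2 ratio of all genes with a fold from -0.05 to -0.51. On that scale 2 of the 10 genes, Plaur and F10, stayed past 2-fold upward and 0 passed it downward, where over all measured genes 1.77% were higher and 15.8% lower.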

How the data were processed

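Pooled membrane RNA of 3 control and 3 MSU mice was read on 1 oligonucleotide array (Affymetrix Mo430_2) each. The authors deposited 1 linear intensity for each probe set, calculated in Affymetrix software (the submitters' notes name MAS5, version not given in the sources used here), and the mean of the values trimmed by 2% at each end was the same on both arrays. They were used as deposited, with log2 ratios taken as MSU over control. Genes were named from the platform annotation, updated by gene identifier through RefSeq (GRCm38.p6). The 64 control probe sets, those of several genes (932) and those not listed (9160) gave no gene value. Each array's floor was placed so that the number of probe sets reaching it equals the number the study counted as detected. It takes no account of probe-level background. With 1 array per group, no p-value was computed, 2-fold is a fixed size, and the number of arrays limits the precision. The gene step was tested on simulated data. Computations used Python 3.11.15, numpy 2.4.6, pandas 2.3.3 and matplotlib 3.10.9.

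The genes and lists were chosen with earlier results of these data known. By rule, the text names all 10 genes, further pathway genes past 2-fold and, per list, the 2 brightest others. F5, Vwf, Ggcx, Entpd1, Pros1, Tfpi2, S100a10, genes listed as under the floor and cell type markers beyond the 2 brightest were named after their values were seen. The alternatives were median scaling, quantile normalization, scaling on spike-ins, no floor, a floor reached by 15000 probe sets, adding the floor as a pseudocount, taking each gene's median probe set ratio, leaving out _x_at and _s_at probe sets, and a size of 3-fold. A planned comparison of protein sequences was not made. The study's methods differ from the sample records, which are followed here, on the air volume and the day of injection.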

Additional observations from a re-analysis of the deposited data

How the results depend on the processing

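The count of the 10 genes at least 2-fold higher was 3 as deposited and 2 on the spike-in scale (without Thbd) and at a size of 3-fold (without Thbd), and 3 under the other 7 alternatives. No gene of the 10 was at least 2-fold lower under any of the 9. The median log2 ratio of the 9 genes with a fold, 0.48, was 0.027 under spike-in scaling. Of 79 values of single genes under alternatives, 4 changed sign. Another 10 kept their sign but moved by at least 0.33, the pooled SD of log2 ratios between probe sets of a gene. Under spike-in scaling every gene of the 10 moved this far or changed sign. The sign changes were those of Plau (-0.37) and Tfpi (-0.24) under spike-in scaling, and Procr under quantile normalization (0.018) and with the floor as a pseudocount (0.016). Plaur ran from 1.80 to 2.26, F10 from 1.45 to 2.43 and Thbd from 0.71 to 1.18 on the log2 scale. Taking the median over probe sets could not alter these genes, since Plaur and Thbd have 1 probe set each and no probe set of F10 has a fold. The bounds of the dimmer F10 probe sets (log2 1.54 and 0.80) entered no setting. Leaving out _s_at probe sets removed the only one of Procr and both of F2r, so these genes had no value there. Of the genes in the 4 pathway lists, 6 were past 2-fold in either direction as deposited, 15 with no floor, where 52 genes count as measured in place of 33, and 3 at a size of 3-fold.

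Over all measured genes, 413 were at least 2-fold higher and 478 lower as deposited, 200 and 1787 under spike-in scaling, 1623 and 1724 with no floor, 333 and 218 with the floor as a pseudocount, and 164 and 80 at a size of 3-fold. No paired analysis was possible because each group has 1 array. Genes whose control signal lies under the floor, such as F10, have a bound that depends on where the floor is put. With 1 pool per group, the variation between mice was not measured.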
